A study of Mus musculus with 8 samples.

Results

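The collagen genes of mouse were followed in 8 detached retinas, 4 of wild-type mice (WT 3, 4, 5 and 7) and 4 of mice expressing human transferrin (TG 2, 5, 6 and 8). A gene was taken as a member when its symbol in the deposited table had the form Col, a type number, a and a chain number, and where a symbol had several rows the one with the highest mean would have been kept. This rule found 44 genes among 56465 features, each on 1 row. All mice carry the strain label C57Bl/6J, and every retina had been detached by a subretinal injection of 10 µl of sodium hyaluronate and was collected 4 days later. The study's title speaks of protection by transferrin, the iron carrier of plasma. No retina without detachment entered the comparison, so TG against WT compares 2 groups of detached retinas. WT 3, WT 4, WT 5, TG 2 and TG 5 are labelled male, and WT 7, TG 6 and TG 8 female. WT 3, WT 4, WT 5, TG 5 and TG 8 are right eyes, and WT 7, TG 2 and TG 6 left eyes. The sources used here give neither the age of the mice nor the promoter and cells that drive the human transgene. Nor do they tie each library to its own mouse, so a p-value here reflects only how these samples spread.

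Collagens are extracellular proteins made of chains wound around each other into a helix, each chain encoded by its own gene. Fibril-forming types make tensile fibrils, the network types build basement membranes and other sheets, the fibril-associated types decorate fibrils, and a few types span the cell membrane. In the eye, types II, IX and XI form the vitreous fibrils that attach to the inner retina, type IV lies in the inner limiting membrane, in vessel walls and in Bruch's membrane under the pigment epithelium, and types I, III and V make up most of the sclera and of scars.

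Libraries held 61535690 to 75866423 counted reads. The tissue label was met by its markers, since 6 rod photoreceptor genes summed to 2700310 to 4114340 normalized reads in every library. WT 3 stood apart in markers of other tissues. Its 8 pigment epithelium markers summed to 97888 normalized reads. WT 4, WT 5 and WT 7 had 4107 to 9882, and the TG libraries 6891 to 43228, with TG 2 highest. The 8 lens markers summed to 24479 in WT 3 and 20154 in TG 6, against 45.4 to 5145 elsewhere, and 5 of the 8 (Cryba1, Crygs, Mip, Lim2 and Bfsp1) were at 0 in some library. In whole tissue, fewer cells of a type and less RNA per cell cannot be told apart.

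No collagen gene passed the test between TG and WT. Of the 44 genes, 41 had a mean of at least 10 normalized reads and were tested, and 0 had an adjusted p under 0.05 with limma, edgeR or DESeq2. Over all 19798 features tested, 0.0101% were called with limma, 0.0101% with edgeR and 0.0808% with DESeq2. The smallest adjusted p of a collagen gene was 0.92 with limma. At an unadjusted p under 0.05 (limma), 5 of the 41 stood out, 12.2% against 4.64% of all features tested. The 3 with higher values in TG were Col9a2, Col9a1 and Col2a1, against a background of 2.02% in that direction. The 2 with lower values were Col6a2 and Col10a1, against 2.62%. Col10a1 reached the mean of 10 only through its WT libraries, so it had to differ and its place in this count carries no weight. The number of collagen genes moved with the libraries used, as did that over all 19798 features, 918 with all 8 libraries. The number was 2 without WT 4 (504 over all features), without WT 5 (1559) or without WT 3 and TG 2 together (1102). It was 8 without WT 3 (785) or without TG 8 (637), and 10 with males only (1023 of 19797). All of these settings had 0 collagen genes past the adjusted threshold. edgeR gave 6 and DESeq2 gave 5 at an unadjusted p under 0.05, where the background was 4.12% and 5.34%.

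Direction over the whole family was close to even. The fold change was above 0 for 22 of the 41 genes, 53.7% against 47.8% of all features tested, and the median log2 fold change was 0.13 against -0.017. That median turned to -0.014 without TG 2 and to -0.049 with eye as a term. Groups did not overlap for Col9a2, where TG was higher, and Col6a2, where TG was lower, 4.88% of the 41 genes against 2.53% of all features (1.36% with TG higher and 1.16% with TG lower). The standard errors were wide, with a median of 0.46 on the log2 scale against 0.30 for all features, and the 95% interval lay within a log2 change of 1 either way for 4 genes, Col2a1, Col4a1, Col4a2 and Col25a1. Leaving out some 1 library moved the fold change by over 1.5 times or reversed it for 34 of the 41 genes. The 7 it did not move that far were Col2a1, Col5a1, Col5a2, Col6a2, Col9a1, Col9a2 and Col10a1.

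The summed level overlapped between groups. All 44 genes together summed to 16987, 6549, 7717 and 9464 normalized reads in WT 3, WT 4, WT 5 and WT 7, and to 15260.2, 10285, 12814 and 8448 in TG 2, TG 5, TG 6 and TG 8. The highest total was 2.59 times the lowest, and both ends were WT libraries. WT 3 was the highest library for 9 of the 41 tested genes and TG 8 the lowest for 13.

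**Figure D1:**
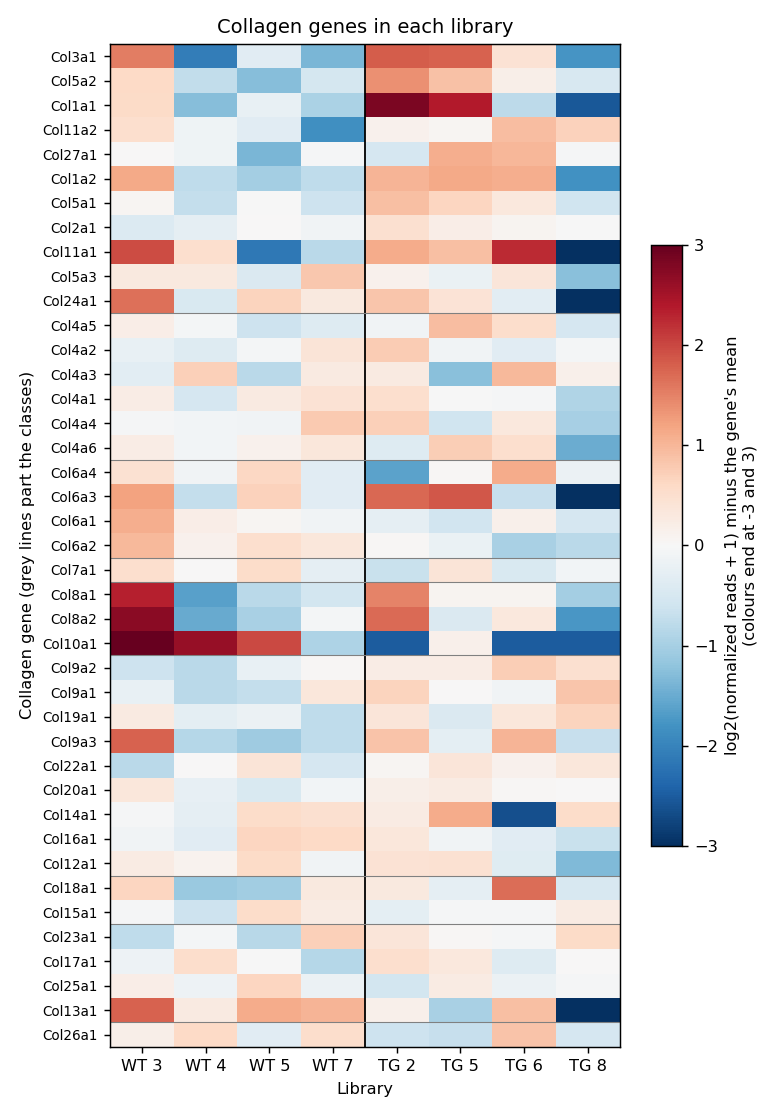
Heat map of the 41 tested collagen genes (rows, ordered by class) in the 8 libraries (columns), as log2(normalized reads + 1) minus each gene's mean over the libraries, with red above and blue below that mean. Col8a1, Col8a2 and Col10a1 are red in WT 3, and Col1a1 is red in TG 2 and TG 5. The column of TG 8 holds the lowest value of 13 genes and the highest value of 2, Col9a1 and Col19a1.

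**Figure D2:**
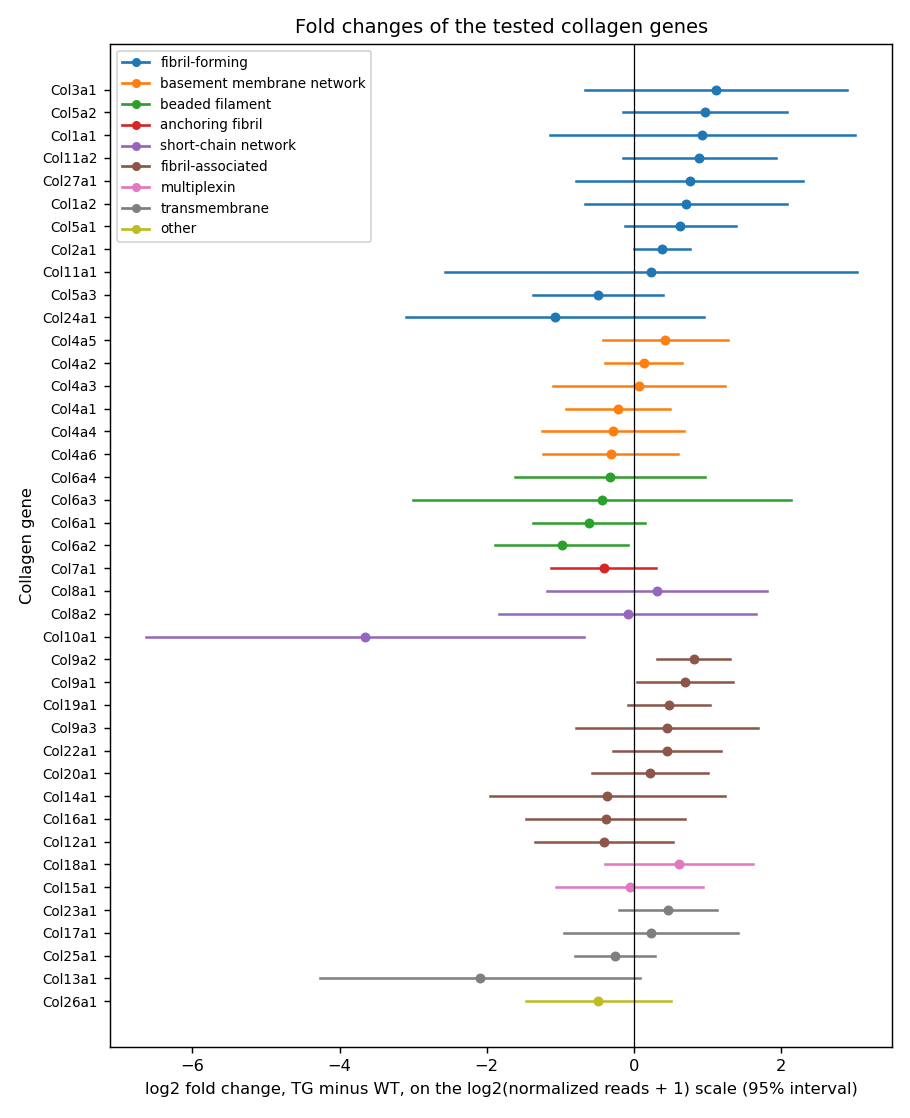
Log2 fold change of TG minus WT for each of the 41 tested collagen genes (points) with its 95% interval from limma (lines), coloured by class. Intervals leave out 0 for 5 genes, Col9a2, Col9a1, Col2a1, Col6a2 and Col10a1, and none of them passed the adjusted threshold.

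Compared per kilobase of transcript, types I and III were not among the most abundant collagen messages. The highest means over the 8 libraries were those of Col8a2 with 250.2 normalized reads per kilobase, Col18a1 with 222, Col8a1 with 193, Col19a1 with 183, Col9a2 with 176, Col4a2 with 164 and Col2a1 with 161. Col1a2, Col3a1 and Col1a1 stood at 48.0, 32.5 and 31.1 on the same scale. The lowest of the tested genes was Col6a3 with 2.09. The place of Col8a1 and Col8a2 in this order rests in part on WT 3, as their values by library show.

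Col9a2, Col9a1 and Col2a1, whose products belong to the surface and the core of vitreous fibrils, had the smallest p-values among collagen genes with higher values in TG. Col9a2, a chain of the type IX heterotrimer that sits on type II fibrils, lies on the plus strand of chromosome 4 from 121039566 to 121055325 (mm10). It had 318, 276, 414 and 496 normalized reads in WT 3, WT 4, WT 5 and WT 7, and 564, 564, 806 and 677 in TG 2, TG 5, TG 6 and TG 8. All 4 TG libraries lay above all 4 WT libraries. The means were 376 ± 98.7 and 653 ± 115 (SD, n = 4 each), a ratio of 1.74. On the log2 scale this was a fold change of 0.81 ± 0.23 (SE, unadjusted p = 0.0033, adjusted p = 0.92, limma), and its 95% interval ran from 0.32 to 1.31. Leaving out 1 library at a time gave 0.68 to 0.96, and leaving out WT 3 and TG 6 together gave 0.64.

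Col9a1, the chain of type IX that carries the N-terminal globular domain in its long form, lies on the plus strand of chromosome 1 from 24177610 to 24252738. Its values were 320.3, 215, 228 and 477 in WT 3, WT 4, WT 5 and WT 7, and 595, 375, 348 and 672 in TG 2, TG 5, TG 6 and TG 8. The groups overlapped, because WT 7 lay above TG 5 and TG 6. For Col9a1 the log2 fold change was 0.70 ± 0.30 (SE, unadjusted p = 0.037, adjusted p = 0.92, limma). The third chain, Col9a3, did not share this order. It had 728, 117, 100.4 and 126 normalized reads in WT 3, WT 4, WT 5 and WT 7, and 384, 174, 431 and 132 in TG 2, TG 5, TG 6 and TG 8. Its log2 fold change of 0.45 ± 0.58 (SE) became 1.12 without WT 3 and 0.17 without WT 5. Per kilobase of transcript, Col9a3 stood at 0.187 to 0.654 of Col9a2 in 7 libraries and at 2.19 in WT 3.

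Col2a1, the chain of type II collagen, in which mutations are known to cause vitreous degeneration with retinal detachment, lies at chr15:97975603-98004724 (minus strand). It had 608, 676, 823 and 752 normalized reads in WT 3, WT 4, WT 5 and WT 7, and 1129, 939, 861 and 806 in TG 2, TG 5, TG 6 and TG 8. The groups overlapped only through WT 5, which lay above TG 8. The means were 715 ± 93.2 and 934 ± 141 (SD, n = 4 each). This gave a log2 fold change of 0.38 ± 0.18 (SE, unadjusted p = 0.048, adjusted p = 0.92, limma), and it was 0.21 without WT 3 and TG 2 together.

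Type XI chains join type II in the same fibrils. Col11a1 was scarce, with 52.2, 18.4, 2.11 and 6.82 normalized reads in WT 3, WT 4, WT 5 and WT 7, and 28.4, 24.7, 63.0 and 0 in TG 2, TG 5, TG 6 and TG 8. WT 3 and TG 6, the libraries with the highest lens marker sums, were also highest for Col11a1, and the part of lens tissue in it was not tested. Its log2 fold change was 0.23 ± 1.30 (SE) and ran from -0.47 without TG 6 to 1.53 without TG 8. Col11a2, on chromosome 17, ranged from 23.4 to 123 in WT and from 89.8 to 163 in TG, with a log2 fold change of 0.89 ± 0.48 (SE, limma adjusted p = 0.92). Without WT 7, the lowest library, that value was 0.43, and with males only it was 0.08. Of 6 cartilage markers, which share the type II programme, Matn1 was at 0 in all 8 libraries, and Chad and Matn3 in 7. The sum was 699 to 1107 in WT and 782 to 1628 in TG, and Lect1 and Hapln1 made up most of it. Lect1 and Hapln1 had means of 741 and 221 over the 8 libraries, and Acan had 17.0. The log2 fold changes of Lect1 and Hapln1 were 0.37 and -0.40.

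The 250 bases before the RefSeq starts of Col9a2 and Col9a1 are shown because these genes had the smallest unadjusted p-values among genes with higher values in TG. Capitals mark matches on either strand to 3 short promoter motifs, and overlapping matches were joined. A match counted wherever it lay in the 250 bases, and whether it acts as a promoter element was not tested. The CCAAT box was searched by its own letters. The TATA box was searched as TATAAA. The GC box, to which Sp1 can bind, was searched as GGGCGG. The sequences are from RefSeq, GRCm38.p6, 5′ to 3′ on the strand of the gene.
Col9a2 (chr4:121039316-121039565, plus strand): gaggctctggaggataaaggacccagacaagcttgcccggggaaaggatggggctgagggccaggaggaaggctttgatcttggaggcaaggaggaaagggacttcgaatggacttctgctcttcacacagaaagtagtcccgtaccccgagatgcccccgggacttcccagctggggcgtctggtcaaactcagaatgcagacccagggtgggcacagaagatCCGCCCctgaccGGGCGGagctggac
Col9a1, upstream start (chr1:24177360-24177609, plus strand): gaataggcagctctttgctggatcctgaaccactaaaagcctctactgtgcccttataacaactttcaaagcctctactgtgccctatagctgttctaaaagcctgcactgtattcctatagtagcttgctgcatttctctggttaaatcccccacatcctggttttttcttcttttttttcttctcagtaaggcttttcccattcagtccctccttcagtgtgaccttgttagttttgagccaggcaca
Col9a1, internal start (chr1:24194953-24195202, plus strand): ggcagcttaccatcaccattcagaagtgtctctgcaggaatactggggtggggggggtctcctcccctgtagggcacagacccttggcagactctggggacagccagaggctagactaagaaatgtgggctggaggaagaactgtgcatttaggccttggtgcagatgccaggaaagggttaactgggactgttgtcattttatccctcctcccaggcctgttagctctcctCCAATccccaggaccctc
Col9a2 had 2 GC boxes and neither start of Col9a1 had one, while the internal start of Col9a1 had 1 CCAAT box. The deposited values are per gene, so they do not tell which start of Col9a1 was used. Of all 32851 promoter windows of this length in the table, 32.7% held a GC box, 33.9% a CCAAT box and 12.4% a TATA box. Of the 38 windows of 35 collagen genes in the table, 22 held a GC box, 13 a CCAAT box and 5 a TATA box.

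**Figure D3:**
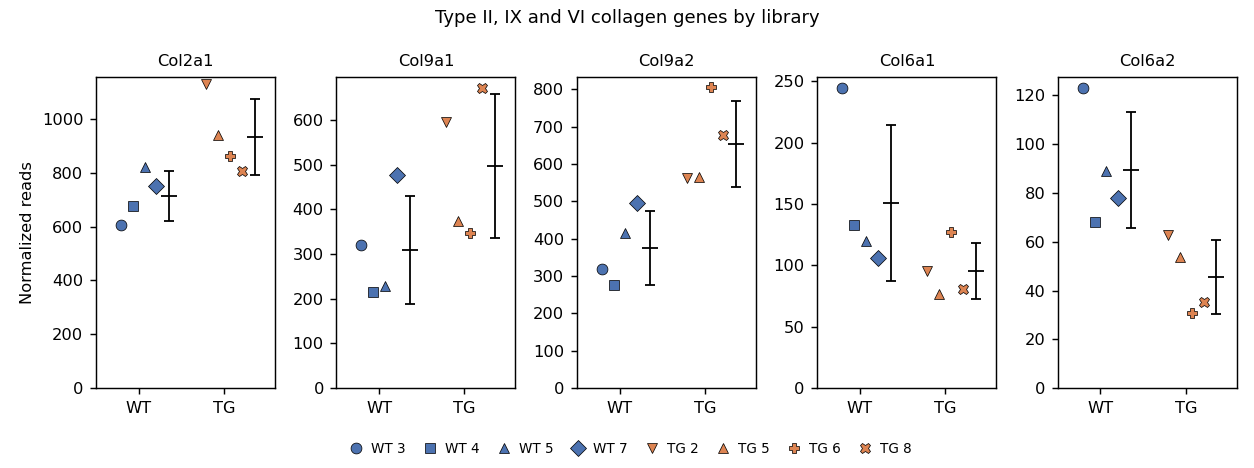
Normalized reads (linear axes from 0) of Col2a1, Col9a1, Col9a2, Col6a1 and Col6a2 in each library, one symbol per library, with the mean and SD of each group of 4 beside the points. The TG points of Col9a2 lie at 564 to 806, all above the WT points at 276 to 496, and those of Col6a2 at 30.9 to 62.9, all below the WT points at 68.1 to 123.

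Type VI collagen, which forms beaded filaments around cells and vessels, had fitted log2 fold changes below 0 for the 4 tested chains of 6, with a median of -0.52, and 0 passed. For Col6a3 that sign went against its means. Col6a2, at chr10:76595756-76623404 (minus strand), had 123, 68.1, 88.8 and 78.0 normalized reads in WT 3, WT 4, WT 5 and WT 7. It had 62.9, 53.7, 30.9 and 35.1 in TG 2, TG 5, TG 6 and TG 8, so the groups did not overlap. The means were 89.4 ± 23.8 and 45.7 ± 15.2 (SD, n = 4 each), and the log2 fold change was -0.98 ± 0.42 (SE, unadjusted p = 0.036, adjusted p = 0.92, limma). With males only it was -0.63, and without WT 3 and TG 6 together it was -0.65.

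Col6a1, the partner chain of Col6a2 in the same heterotrimer and its neighbour on chromosome 10, had 245, 133, 119 and 106 normalized reads in WT 3, WT 4, WT 5 and WT 7. It had 95.7, 76.6, 127 and 81.0 in TG 2, TG 5, TG 6 and TG 8, and the groups overlapped through TG 6. For Col6a1 the log2 fold change was -0.61 ± 0.35 (SE, limma adjusted p = 0.92), and -0.35 without WT 3. The third chain, Col6a3, was low, with 7.37 to 30.7 in WT and 0 to 48.4 in TG, and its fitted log2 fold change of -0.44 ± 1.19 (SE) had the opposite sign to the difference of its means, 17.2 and 25.0. It was positive with edgeR (0.57) and DESeq2 (0.54), with sex as a term (0.22), with males only (1.39), without TG 8 (0.75) and without WT 3 and TG 6 together (0.057). Col6a4, a chain that can take the place of Col6a3, ranged from 31.2 to 61.3 in WT and from 12.4 to 86.4 in TG, with a log2 fold change of -0.32 ± 0.60 (SE) that was 0.16 without TG 2. Pericyte and smooth muscle markers, whose cells are a known source of type VI collagen, had fitted log2 fold changes below 0 for 7 of 7 genes. Over all features tested, 47.8% lay above 0. The mean of Abcc9, at 0 in TG 6, was nevertheless 32.5 in WT and 32.9 in TG. TG 6 was the lowest library for all of the 7 genes but Kcnj8 and Myh11. The 7 summed to 14899.8 to 22558 in WT and 14296 to 19089.7 in TG. Rgs5 made up most of each sum, with 13947 to 21064 in WT and 13672 to 17395 in TG. The part of pericytes and smooth muscle in the type VI values was not tested.

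Type I, III and V genes, the fibrillar collagens of sclera, vessel adventitia and scar, differed between libraries within both groups. Of the 11 fibril-forming genes, types II and XI included, 9 had a log2 fold change above 0, with a median of 0.71, and 0 passed. Their summed level in normalized reads averaged 1583 ± 408 over the WT libraries (SD, n = 4), and 2444 ± 911 over the TG libraries. Col1a1, on chromosome 11 from 94936224 to 94953040, had 135, 36.8, 77.2 and 45.8 normalized reads in WT 3, WT 4, WT 5 and WT 7. It had 643, 469, 51.9 and 14.6 in TG 2, TG 5, TG 6 and TG 8. The TG group thus held both the highest libraries and the lowest, and the male TG libraries were the high ones. The fitted log2 fold change of 0.93 ± 0.96 (SE, limma adjusted p = 0.92) had a 95% interval from -1.14 to 3.001. It was 0.15 without TG 2, 0.30 without TG 5 and 1.94 without TG 8. With males only it was 2.90 (adjusted p = 0.18, limma), with sex as a term 1.61, and with edgeR and DESeq2 2.03 and 2.00. Whether the TG against WT difference itself differs between sexes was not tested, and only 1 WT library was female.

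Col3a1, which encodes the homotrimeric type III chain, followed a similar order. It had 326, 25.8, 88.8 and 42.9 normalized reads in WT 3, WT 4, WT 5 and WT 7, and 397, 382, 151 and 32.2 in TG 2, TG 5, TG 6 and TG 8. WT 3 was here nearly as high as TG 2 and TG 5. For Col3a1 the log2 fold change was 1.12 ± 0.82 (SE, limma adjusted p = 0.92), 1.82 without WT 3 and 1.89 without TG 8. It was 0.61 without WT 4, 0.70 without TG 2 and 0.72 without TG 5.

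Col1a2, the second chain of type I, had 429, 115, 95.1 and 115 normalized reads in WT 3, WT 4, WT 5 and WT 7, and 395, 431, 416 and 54.6 in TG 2, TG 5, TG 6 and TG 8. WT 3 and TG 8 each stood apart from their own group. The log2 fold change of 0.71 ± 0.64 (SE) became 1.20 without WT 3 and 1.43 without TG 8. It became 0.45 without TG 5 and 0.47 without TG 6. The 2 type I chains were not in a fixed proportion. Per kilobase of transcript, Col1a1 stood at 1.47 of Col1a2 in TG 2 and 0.981 in TG 5, at 0.112 in TG 6, and at 0.242 to 0.732 in TG 8 and the WT libraries.

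Type V chains, which set the diameter of type I fibrils, had log2 fold changes of 0.63 ± 0.35 for Col5a1, 0.97 ± 0.52 for Col5a2 and -0.48 ± 0.41 for Col5a3 (SE each), and 0 passed. The value of Col5a3 was -0.29 without WT 7, -0.15 without TG 8 and -0.087 with males only. Col5a1 had 341, 282, 227 and 119 normalized reads in TG 2, TG 5, TG 6 and TG 8 and 110.5 to 189 in WT, so TG 8 alone lay within the WT range. Col5a2 had 177, 127, 76.6 and 48.8 in the same TG libraries and 27.5 to 104 in WT. Of the minor fibril-forming genes, Col24a1 stood at -1.08 ± 0.94 and Col27a1 at 0.76 ± 0.72 (log2 fold change, SE), and both genes were scarce. Without TG 8 the value of Col24a1 was -0.23, and without WT 5 that of Col27a1 was 0.43.

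The 9 fibroblast markers summed to 594, 255, 226 and 455 normalized reads in WT 3, WT 4, WT 5 and WT 7, and to 410.4, 367, 401 and 259 in TG 2, TG 5, TG 6 and TG 8, and 5 of the 9 (Pdgfra, Dpt, Pi16, Lum and Fap) were at 0 in at least 1 library. WT 3 and WT 7 were highest for this sum, and TG 2 and TG 5 for Col1a1. Single markers differed from the sum, with fitted log2 fold changes above 0 for 4 of the 9 and below 0 for 5. Mfap5 had 55.0, 72.2, 64.2 and 10.7 normalized reads in TG 2, TG 5, TG 6 and TG 8. Its WT range was 7.37 to 23.4, and its log2 fold change was 1.72 ± 0.74 (SE). Those of the other markers ran from -1.69 ± 1.06 for Pi16 to 1.25 ± 1.66 for Lum (SE each). Pdgfra stood at -1.45 ± 1.10, Dcn at 0.23 ± 0.76 and Scara5 at -0.019 ± 0.35 (log2 fold change, SE). The 6 macrophage and microglia markers were highest in TG 5 (14393) and TG 2 (9652), with 6133 and 8962 in TG 8 and TG 6 and 5685 to 8168 in WT. The part of either cell type in these collagen values was not tested.

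The 250 bases before the starts of Col1a2 and Col3a1 are shown because both were high in WT 3, TG 2 and TG 5 (Col1a2 in TG 6 as well). Capitals, source and strand are as for Col9a2.
Col1a2 (chr6:4505368-4505617, plus strand): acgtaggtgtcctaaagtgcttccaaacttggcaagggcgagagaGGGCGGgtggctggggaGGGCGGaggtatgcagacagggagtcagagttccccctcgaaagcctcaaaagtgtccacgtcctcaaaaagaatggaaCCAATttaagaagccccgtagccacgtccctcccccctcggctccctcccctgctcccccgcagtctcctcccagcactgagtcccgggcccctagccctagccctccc
Col3a1 (chr1:45311288-45311537, plus strand): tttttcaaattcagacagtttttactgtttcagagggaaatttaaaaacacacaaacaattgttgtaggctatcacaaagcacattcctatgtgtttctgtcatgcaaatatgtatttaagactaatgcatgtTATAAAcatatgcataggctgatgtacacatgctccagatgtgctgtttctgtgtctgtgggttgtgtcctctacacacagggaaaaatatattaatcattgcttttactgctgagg
Col1a2 had 1 CCAAT box and 2 GC boxes, and Col3a1 had 1 TATAAA match, not near its start, and neither of the others.

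**Figure D4:**
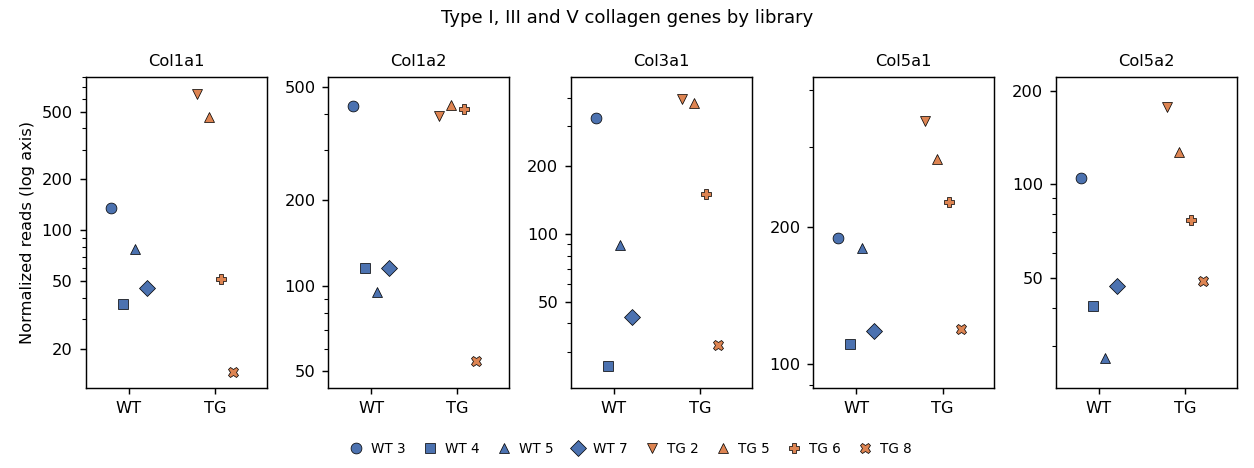
Normalized reads (log axes) of Col1a1, Col1a2, Col3a1, Col5a1 and Col5a2 in each of the 4 WT and 4 TG libraries, one symbol per library. TG 2 and TG 5 lie high in every panel, at 643 and 469 for Col1a1. TG 8 is lowest for Col1a1 (14.6) and Col1a2 (54.6), and lies above WT 4 in the other panels.

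Type VIII collagen, a short-chain type that makes hexagonal lattices in Descemet's membrane and also occurs in vessel walls, varied widely between libraries of both groups. Col8a1, at chr16:57624256-57754737 (minus strand), had 3305, 212, 376 and 447 normalized reads in WT 3, WT 4, WT 5 and WT 7, and 1842, 694, 697 and 322 in TG 2, TG 5, TG 6 and TG 8. WT 3 and TG 2 were far above the others, and the groups overlapped throughout. The mean was 1085 in WT and 889 in TG. The fitted log2 fold change had the opposite sign, 0.32 ± 0.69 (SE, limma adjusted p = 0.97). It was 1.15 without WT 3 and turned to -0.17 without WT 4, to -0.12 without TG 2, and to -0.25 and -0.29 with edgeR and DESeq2.

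Col8a2, the other type VIII chain, on chromosome 4, was added for its pattern after its values were seen. It had 4085, 217, 317 and 599.5 normalized reads in WT 3, WT 4, WT 5 and WT 7, and 2030.0, 463, 774 and 185 in TG 2, TG 5, TG 6 and TG 8. Its log2 fold change of -0.081 ± 0.81 (SE) became 0.81 without WT 3 and -0.66 without TG 2. Per kilobase of transcript, Col8a1 stood at 0.633 to 1.47 of Col8a2 in every library, so the chains went together while each varied widely.

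The summed pigment epithelium markers were high in the same libraries as type VIII. The sums were 97888, 4107, 7278 and 9882 in WT 3, WT 4, WT 5 and WT 7, and 43228, 11515, 22422 and 6891 in TG 2, TG 5, TG 6 and TG 8. For Col8a1 the 8 libraries stood in the same order as for this sum, which held for 1 of the 41 tested genes. WT 3 and TG 2 were the highest pair for 3 genes, Col8a1, Col8a2 and Col24a1. Ttr made up 67791 of the 97888 in WT 3. Ttr, Rpe65, Lrat, Rdh5 and Rgr were highest in WT 3 and next in TG 2, while Best1 was highest in WT 4, Pmel in WT 7 and Tyrp1 in TG 6. All 8 markers were detected in all 8 libraries, and their part in the type VIII values was not tested. Without WT 3 and TG 2 together, the log2 fold changes were 0.71 for Col8a1 and 0.23 for Col8a2.

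The 250 bases before the starts of Col8a1 and Col8a2 are shown because their levels went together across libraries although the genes lie on different chromosomes. Capitals, source and strand are as for Col9a2.
Col8a1 (chr16:57754738-57754987, minus strand): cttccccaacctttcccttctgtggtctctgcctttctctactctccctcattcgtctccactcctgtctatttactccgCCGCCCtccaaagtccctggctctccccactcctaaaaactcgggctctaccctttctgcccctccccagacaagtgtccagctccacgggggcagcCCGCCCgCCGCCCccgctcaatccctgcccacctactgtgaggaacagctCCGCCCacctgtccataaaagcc
Col8a2 (chr4:126286544-126286793, plus strand): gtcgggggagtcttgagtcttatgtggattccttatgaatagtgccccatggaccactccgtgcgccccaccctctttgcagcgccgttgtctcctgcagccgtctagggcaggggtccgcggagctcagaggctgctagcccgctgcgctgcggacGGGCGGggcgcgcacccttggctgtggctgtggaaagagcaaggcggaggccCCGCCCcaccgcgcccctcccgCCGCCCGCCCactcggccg
Each held 4 GC boxes and neither a CCAAT nor a TATA box.

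Col10a1, the third short-chain gene and a marker of hypertrophic cartilage, was scarce, and was near the limit of detection in WT 7 and the TG libraries. It had 69.6, 33.1, 21.1 and 1.95 normalized reads in WT 3, WT 4, WT 5 and WT 7, and 0, 5.28, 0 and 0 in TG 2, TG 5, TG 6 and TG 8. A count of 0 allows up to 3 reads, so WT 7 could not be told from the 3 TG libraries at 0. The fitted log2 fold change of -3.65 ± 1.38 (SE, unadjusted p = 0.020, adjusted p = 0.92, limma) depends on the pseudocount and was -4.35 with 0.5 and -2.16 with 5. The gene lies within the span of Nt5dc1 on chromosome 10, and the sources used here do not give the strand setting of the counting.

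**Figure D5:**
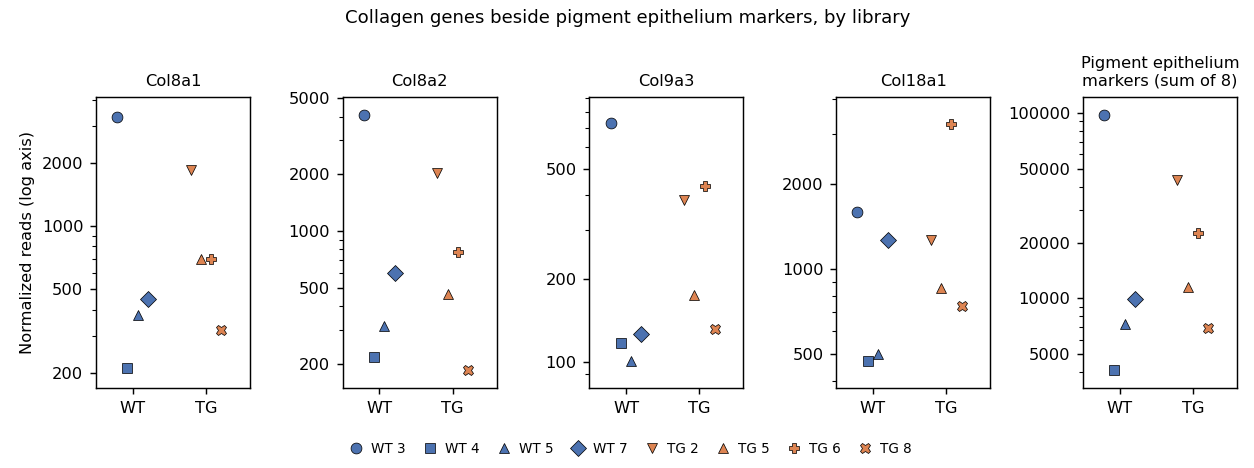
Normalized reads (log axes) of Col8a1, Col8a2, Col9a3 and Col18a1 in each library, beside the sum of 8 pigment epithelium markers, one symbol per library. WT 3 is highest for Col8a1 (3305), Col8a2 (4085), Col9a3 (728) and the marker sum (97888), while TG 6 is highest for Col18a1 (3257).

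Type IV collagen, the network of basement membranes, had log2 fold changes above 0 for 3 of its 6 genes and below 0 for 3, with a median of -0.074, and 0 passed. The summed level in normalized reads averaged 1646 ± 327 over the WT libraries (SD, n = 4), and 1762 ± 479 over the TG libraries. Its genes lie in head-to-head pairs. In the table, Col4a1 (minus strand, ending at 11312826) and Col4a2 (plus strand, starting at 11312805) on chromosome 8 share 22 bases. Col4a1 had 245, 149, 255 and 285 normalized reads in WT 3, WT 4, WT 5 and WT 7, and 301, 210.5, 205 and 112 in TG 2, TG 5, TG 6 and TG 8. Its log2 fold change was -0.21 ± 0.33 (SE), with a 95% interval from -0.93 to 0.50, and turned to 0.26 with males only and 0.051 without TG 8. Col4a2 had 882, 781, 989 and 1342 in WT 3, WT 4, WT 5 and WT 7, and 1734, 954, 806 and 991 in TG 2, TG 5, TG 6 and TG 8. For Col4a2 the log2 fold change was 0.13 ± 0.24 (SE), with an interval from -0.39 to 0.65, and turned to -0.098 without TG 2. TG 2 was the highest library for both genes, and the WT and TG ranges overlapped for both. The products of both genes join in 1 trimer, and per kilobase of transcript Col4a1 stood at 0.11 to 0.27 of Col4a2 in the 8 libraries.

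The other type IV chains, known from kidney glomeruli and also from ocular basement membranes, were scarcer per kilobase of transcript. Col4a3 had 45.0, 93.0, 31.7 and 68.2 normalized reads in WT 3, WT 4, WT 5 and WT 7, and 68.3, 22.9, 111 and 62.4 in TG 2, TG 5, TG 6 and TG 8. Col4a4 had 76.8, 74.6, 74.0 and 137 in WT 3, WT 4, WT 5 and WT 7, and 131, 52.0, 98.8 and 39.0 in TG 2, TG 5, TG 6 and TG 8. Neither gene separated the groups, with log2 fold changes of 0.066 ± 0.54 and -0.28 ± 0.45 (SE). The X-linked pair stood at 0.43 ± 0.39 for Col4a5 and -0.31 ± 0.43 for Col4a6 (log2 fold change, SE), and the TG range of Col4a6, 56.6 to 268, spanned the WT range of 151 to 203. Endothelial markers had fitted log2 fold changes below 0 for 7 of 7 genes, and 0 of them passed. Over all features tested, 47.8% lay above 0. WT 7 was the highest library for each of the 7 genes, and TG 6 the lowest for all but Cldn5. The sums were 3576, 3897, 4724 and 8072 normalized reads in WT 3, WT 4, WT 5 and WT 7. They were 5263, 4619, 2999.7 and 4318 in TG 2, TG 5, TG 6 and TG 8.

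Col18a1 and Col15a1 encode multiplexins, basement membrane collagens that also carry heparan or chondroitin sulfate, and the C-terminal piece of the former is endostatin. Col18a1 had 1592, 471, 497 and 1264 normalized reads in WT 3, WT 4, WT 5 and WT 7, and 1261, 852, 3257 and 739 in TG 2, TG 5, TG 6 and TG 8. TG 6 was highest and WT 3 next, the libraries that also had the highest lens marker sums, and the part of lens tissue in these values was not tested. The log2 fold change of 0.61 ± 0.47 (SE, limma adjusted p = 0.92) was 0.16 without TG 6 and 0.93 without WT 3. Col15a1 had 42.0, 27.6, 63.4 and 51.7 in WT 3, WT 4, WT 5 and WT 7, and 35.5, 42.3, 42.0 and 51.7 in TG 2, TG 5, TG 6 and TG 8. Every TG value lay within the WT range, and the log2 fold change was -0.056 ± 0.46 (SE).

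Among the remaining fibril-associated genes, Col19a1, which neighbours Col9a1 on chromosome 1 and is expressed in neurons, was the most abundant per kilobase. Its span overlaps that of Lmbrd1, so some of its reads may be shared. Col19a1 ranged from 442 to 892 normalized reads in WT and from 555 to 1184 in TG. Its log2 fold change was 0.48 ± 0.26 (SE, limma adjusted p = 0.92), and 0.042 with males only. Col20a1 and Col22a1 had log2 fold changes of 0.22 ± 0.37 and 0.45 ± 0.34 (SE). Col12a1, Col14a1 and Col16a1 stood at -0.40 ± 0.44, -0.36 ± 0.74 and -0.38 ± 0.50 (SE), and Col14a1, at 4.94 in TG 6 and 42.5 to 79.3 in the other TG libraries, turned to 0.46 without TG 6. The means of Col14a1, 41.9 in WT and 44.9 in TG, differed in the opposite direction to its fitted value with all 8 libraries. Of the 9 fibril-associated genes, types IX and XIX included, 6 had a log2 fold change above 0, with a median of 0.45, and 0 passed. Their summed level in normalized reads averaged 1963 ± 442 over the WT libraries (SD, n = 4), and 2717 ± 395 over the TG libraries.

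The transmembrane collagens, whose ectodomains can be shed, numbered 4, and 0 passed. Col23a1 ranged from 299 to 873 normalized reads in WT and from 519 to 789 in TG, and Col25a1, a neuronal collagen first found in amyloid plaques, from 332 to 588 and from 254 to 446. Their log2 fold changes were 0.46 ± 0.31 and -0.26 ± 0.25 (SE). Col13a1, which acts at the neuromuscular junction, had 22.1 to 64.5 in WT and 0 to 34.6 in TG, with a log2 fold change of -2.09 ± 1.01 (SE, unadjusted p = 0.059, adjusted p = 0.92, limma) that was -1.01 without TG 8, the library at 0. Col17a1, the hemidesmosome collagen, stood at 0.24 ± 0.55, Col7a1, the anchoring fibril collagen, at -0.41 ± 0.33, and Col26a1 at -0.48 ± 0.46 (log2 fold change, SE). Of the 3 genes left untested for low values, Col6a5 had 0 to 7.80 normalized reads, Col28a1 had 0 to 10.2, and Col6a6 had 0 to 3.68 in WT and 0 to 27.2 in TG.

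Genes that make, bind or accompany collagen were taken from 5 lists, and 0 of their members passed. Of the enzymes and chaperones that modify, fold and cross-link collagen, 15 of 28 tested genes had a log2 fold change above 0 and 13 below, with a median of 0.066. P4ha2, a prolyl 4-hydroxylase subunit, averaged 371 ± 134 normalized reads (SD, n = 4) in WT, and 502 ± 27.2 in TG. Fkbp10, a procollagen chaperone, ranged from 138 to 266 and from 235 to 306, and Colgalt1, which glycosylates hydroxylysine, averaged 778 ± 104 and 607 ± 145. The log2 fold changes of the 3 were 0.51, 0.48 and -0.38 (adjusted p = 0.92 each, limma). Without WT 3 those of P4ha2 and Fkbp10 were 0.28 and 0.32.

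Of the collagen receptors, 7 of 9 tested genes had a log2 fold change above 0, with a median of 0.059. Mrc2, the receptor that takes up collagen for degradation, had 217, 131, 104 and 133 normalized reads in WT 3, WT 4, WT 5 and WT 7, and 264, 211, 422 and 154 in TG 2, TG 5, TG 6 and TG 8. Its log2 fold change was 0.80 ± 0.35 (SE, unadjusted p = 0.037, adjusted p = 0.92, limma), and only WT 3 overlapped the TG range. The integrin subunit gene Itga1, whose row also carries Pelo, and the receptor kinase gene Ddr1 stood at 0.19 ± 0.15 and 0.32 ± 0.29 (log2 fold change, SE). Without TG 8 the value of Itga1 was 0.12, and that of Ddr1 was 0.14 without WT 3, 0.17 without TG 2 and 0.64 without TG 6.

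Of the other basement membrane genes, 9 of 17 had a log2 fold change above 0, with a median of 0.032. The peroxidase gene Pxdn, which cross-links type IV collagen, stood at -0.77 ± 0.40, and the laminin genes Lama4 and Lamb3 at -0.53 ± 0.30 and -2.06 ± 1.25 (log2 fold change, SE), with Lamb3 at 0 in TG 6 and TG 8. Pxdn was at -0.40 without WT 3, Lama4 at -0.34 without WT 7, and Lamb3 at -1.29 without TG 6 or without TG 8 and -0.82 with edgeR. Of the fibril-associated proteoglycans and glycoproteins, 11 of 18 had a log2 fold change above 0, with a median of 0.15. Thbs2, Vcan and Comp stood at 1.90 ± 1.04, 1.81 ± 1.09 and 1.74 ± 1.10, each with 1 WT library at 0 and overlapping groups. Without the library at 0 the values were 1.03 for Thbs2 and 0.70 for Vcan (WT 5), and 0.48 for Comp (WT 3). Of the TGF-beta signalling genes, a pathway known to induce fibrillar collagens, 12 of 18 had a log2 fold change above 0, with a median of 0.17. The ligand genes Tgfb1 and Tgfb2 stood at 0.47 ± 0.31 and 0.41 ± 0.33, and the decoy receptor gene Bambi at 0.27 ± 0.19 (log2 fold change, SE). Tgfb2 was at 0.22 without WT 5, 0.26 without TG 2 and 0.71 without TG 6, and Bambi at 0.18 without TG 6. All 15 named genes of these lists had an adjusted p of 0.92 (limma).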

How the data were processed

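RNA of 8 retinas was sequenced from poly(A)-selected, stranded libraries, per the labels' protocols. The authors deposited a signal table of normalized read counts, named as normalized with DESeq2. FastQC, Picard, SAMtools, STAR 2.4.0, DESeq2 and mm10 (GRCm38) are named in the submitters' processing notes. How reads were counted, with or without strand and on which annotation, is not stated there. Overlapping genes may therefore share reads, and 11 collagen genes overlap another named gene. Among them are Col19a1 (Lmbrd1), Col9a3 (Tcfl5) and Col18a1 (Gm7775).

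Dividing each column of deposited signal by its smallest step gave whole reads for 100% of values (tolerance 0.01 reads), which gave the depth per library and served edgeR 4.0.16 and DESeq2 1.42.0. No 2 libraries agreed within sampling noise (lowest chi-square per feature 45.3), and 0 sample columns were unmapped. Tests used limma 3.58.1 in R 4.3.3, fitted to log2(value + 1) over all features with a mean of at least 10, with all 8 libraries, Benjamini-Hochberg adjustment and a threshold of 0.05. Fold changes are differences of mean log2(value + 1). For scarce genes they depend on the pseudocount and on libraries at 0, and can lie above or below those of a count model. The script was tested on simulated data.

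Levels between genes were compared per kilobase of the GENCODE M21 transcript with the longest coding sequence. Values in every library are given for 14 collagen genes fixed by name and for each with an unadjusted p under 0.05 or groups that do not overlap, and up to 3 genes of smallest p are named from each related list. Other collagen genes given with library values were chosen after their values were seen. The members and lists were chosen with earlier results of these data known. Alternatives changed the scaling, pseudocount, filter, covariates, tool or libraries. The sums of 1 marker list are not reported here.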

Additional observations from a re-analysis of the deposited data

Results flagged for a closer look

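In 10 of 88 groups of 4 libraries (44 genes in WT and in TG), 1 library lay far from the other 3 by Dixon's test. For independent, normally distributed values, chance alone puts about 1 in 20 groups past that limit. Normalized reads need not follow that form, and genes of 1 library are not independent. The share over all features was not computed, so whether 10 exceeds chance cannot be told. WT 3 was the distant library for 4 genes. It had 3305 normalized reads of Col8a1 against 211.7 to 447.5 in the other WT libraries, 4085 of Col8a2 against 217.3 to 599.5, 728 of Col9a3 against 100.4 to 125.8, and 429 of Col1a2 against 95.12 to 115.1. Beside these values, WT 3 had the highest pigment epithelium, lens and fibroblast marker sums of the 8 libraries, whose part in them was not tested.

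Among the TG libraries, TG 8 had 54.6 normalized reads of Col1a2 against 395.4 to 431.5 in the other 3, and TG 6 had 121 of Col26a1 against 40.51 to 46.82. WT 7 had 137 of Col4a4 against 73.98 to 76.76, and WT 5 had 6.34 of Col27a1 against 16.57 to 18.42. The last pair were near the limit of detection, with 3.68 of Col6a6 in WT 4 and 5.28 of Col10a1 in TG 5, each against 0 in the other 3 libraries of its group. Beside 3 libraries at 0, any value above 0 passes the limit.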

How the results depend on the processing

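Collagen genes past the threshold numbered 0 under all 20 alternatives. Over all features, 2 passed with limma, against 1 with sex as a term, with a minimum mean of 50, with a pseudocount of 0.5 or without the filter on low values, 4 with males only, 16 with DESeq2, and 1 to 3 when 1 library was left out. Of 1105 fold changes recomputed for 56 named genes, 1050 kept their sign and 55 reversed, and 39 genes never reversed. The pairs WT 3 with TG 2 and WT 3 with TG 6 were chosen after seeing the data. With males only, log2 fold changes reversed to 0.26 for Col4a1, -0.36 for Col4a3, 0.14 for Col4a4, 0.080 for Col4a6, 1.39 for Col6a3, 0.56 for Col8a2, 0.13 for Col12a1, 0.61 for Col14a1, 0.061 for Col16a1 and 0.32 for Lamb3. With sex as a term they reversed to -0.13 for Col4a3, 0.22 for Col6a3 and 0.13 for Col8a2, and with eye as a term to -0.11 for Col11a1 and -0.15 for Col4a3. Without WT 3 and TG 2 they reversed to -0.15 for Col4a2, -0.11 for Col4a3, 0.0046 for Col15a1, 0.26 for Col6a4, 0.23 for Col8a2 and -0.013 for Ddr1. Without WT 3 and TG 6 they reversed to -0.34 for Col4a3, 0.057 for Col6a3, 0.69 for Col8a2 and 0.38 for Col14a1. edgeR and DESeq2 gave -0.25 and -0.29 for Col8a1, 0.57 and 0.54 for Col6a3, and 0.11 and 0.10 for Col14a1. Leaving out 1 library gave ranges of -0.47 to 1.53 for Col11a1, -0.42 to 0.051 for Col4a1, -0.098 to 0.28 for Col4a2, -0.25 to 0.50 for Col4a3, -0.57 to 0.0057 for Col4a4, -0.61 to 0.13 for Col4a6, -1.13 to 0.75 for Col6a3, -0.74 to 0.16 for Col6a4, -0.17 to 1.15 for Col8a1, -0.66 to 0.81 for Col8a2, -0.80 to 0.46 for Col14a1, -0.28 to 0.11 for Col15a1 and -0.0076 to 0.46 for Col17a1. The cause of these changes was not tested. No paired analysis was possible because the groups share only 1 replicate number. With 4 libraries a group, standard errors ran from 0.18 to 1.38, and for all but 4 tested collagen genes the 95% interval reached past a log2 difference of 1 in at least 1 direction.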
